A study of Mus musculus with 6 samples.

Results

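The genes described here encode the proteins of the mitochondrial ribosome. They were taken by name, as the protein-coding genes whose GENCODE M21 symbol starts with Mrpl or Mrps followed by a number, and 78 of the 57010 gene identifiers in the expression table met this rule. Their transcripts were measured by RNA sequencing of mouse heart ventricle tissue taken on postnatal day 14. There were 3 libraries of control and 3 of Cend1-KO ventricles, numbered 1, 3 and 4 in each group. Cend1 encodes a regulator of cell cycle exit, and the title of the study names its suppression by the histone demethylase LSD1 in heart regeneration. The control columns of the table are named WT. Strain, sex, the form of the Cend1 allele, the cells it is deleted in and the number of animals per library are not stated in the labels used here. Each p-value therefore sets a difference against the spread of libraries within the groups, pooled in part over genes. Part of that spread may be technical.

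Mitochondria have ribosomes of their own, which translate the few mRNAs of the mitochondrial genome into core subunits of the respiratory chain and ATP synthase. Both ribosomal RNAs come from the mitochondrial genome, whereas the ribosomal proteins are encoded in the nucleus, made in the cytosol and imported, so the particle is built from products of both genomes. The heart, which depends on oxidative phosphorylation, is rich in mitochondria, and inherited defects of several of these proteins cause cardiomyopathy in humans. Of the 78 genes, 51 encode proteins of the large subunit and 26 of the small subunit, counted by where the protein sits and not by the letter in the gene symbol: Mrps30 (mL65) and Mrps18a (mL66) are large-subunit proteins. Mrps36 keeps a ribosomal name but is now known as a component of the alpha-ketoglutarate dehydrogenase complex. In the unified names, u marks a protein found in all ribosomes, b one shared with bacteria and m one found only in mitochondria. By these names 46 of the proteins have a bacterial counterpart and 31 are specific to mitochondria. The genes are spread over 17 chromosomes, with 11 on chromosome 11 and 8 on chromosome 17.

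Genes of the mitochondrial ribosome and of the respiratory chain are known to share binding sites for nuclear respiratory factor 1 (NRF1), for ETS factors such as the GA-binding protein Gabpa, and for YY1 near their start sites. RefSeq promoter windows (GRCm38.p6, 250 bases before to 50 bases after a start site) matched 69 of the 78 genes, in 75 windows. Both strands were searched for the NRF1 letters (GCGCA, any base, then GCGC), the ETS letters CCGGAAG, the YY1 letters AAGATGGC and the SP1 letters GGGCGG, and matches of different motifs overlapped in 2 pairs. The NRF1 letters were in 17.3% of the windows of these genes, against 9.72% of the windows of all tested genes and 4.60% of all windows of this length. For the ETS letters the shares were 34.7%, 17.3% and 8.86%, and for the YY1 letters 16%, 4.39% and 2.75%. In windows of respiratory chain genes the NRF1, ETS and YY1 shares were 25.7%, 22.9% and 12.9%. Windows of cytosolic ribosomal protein genes had 6.67%, 34.7% and 10.7%, so the ETS share was the same there as in the members. The SP1 letters were in 52.0% of the windows, below the 61.7% of the tested genes, and in 35.7% of all windows. The 6 stretches below are the 130 bases before the RefSeq start site of members that the results return to, and were chosen to show each motif and 1 promoter without any of the 3. Capitals mark matches to the NRF1 (Mrpl45, Mrps21 and Mrpl12), ETS (Mrpl34) and YY1 (Mrps11) letters on either strand.

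Mrpl45, chr11:97315586-97315715, plus strand: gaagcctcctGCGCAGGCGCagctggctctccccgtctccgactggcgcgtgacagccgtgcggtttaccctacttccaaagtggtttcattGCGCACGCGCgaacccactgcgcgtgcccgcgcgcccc
Mrps21, chr3:95871515-95871644, minus strand: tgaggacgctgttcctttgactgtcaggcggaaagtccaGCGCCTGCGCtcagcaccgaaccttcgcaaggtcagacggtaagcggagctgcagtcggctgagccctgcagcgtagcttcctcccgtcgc
Mrpl12, chr11:120484507-120484636, plus strand: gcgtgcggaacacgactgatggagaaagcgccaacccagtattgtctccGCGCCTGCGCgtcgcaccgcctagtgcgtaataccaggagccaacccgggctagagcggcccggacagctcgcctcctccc
Mrpl34, chr8:71464796-71464925, plus strand: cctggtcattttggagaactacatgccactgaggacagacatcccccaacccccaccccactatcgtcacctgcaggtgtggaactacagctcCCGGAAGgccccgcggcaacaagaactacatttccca
Mrps11, chr7:78783001-78783130, plus strand: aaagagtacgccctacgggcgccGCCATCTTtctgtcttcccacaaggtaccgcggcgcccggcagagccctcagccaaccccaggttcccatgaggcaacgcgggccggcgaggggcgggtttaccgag
Mrps17, chr5:129715367-129715496, plus strand: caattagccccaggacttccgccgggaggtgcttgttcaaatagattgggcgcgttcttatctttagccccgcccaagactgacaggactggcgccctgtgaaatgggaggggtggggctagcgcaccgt

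Mrpl45 has a pair of NRF1 matches in this stretch, while Mrps17, the member with the smallest p-value, has no match to the 3 motifs there. Median differences between Cend1-KO and control ventricles were also taken over members with and without each motif in their window, and none was tested. After the scaling described next, the median was -0.31 for the 13 members with the NRF1 letters and -0.34 for the 56 without, and -0.35 for the 26 with the ETS letters and -0.31 for the 43 without. For YY1 it was -0.33 for 12 members with and 57 without, and for SP1, the widest gap of the 4, -0.38 for 34 with and -0.31 for 35 without. A match describes letters in a window and says nothing of whether a factor is bound.

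Values are the authors' TPM, a level per transcript length that sums to the same total in every library, so depth is unknown. The targeted gene, Cend1, had 1.44, 1.99 and 1.54 TPM in the controls, and its value is 0 in every Cend1-KO library. Kdm1a, which encodes LSD1, was at 15.9 to 18.1 TPM in controls and 9.49 to 16.1 TPM in Cend1-KO (adjusted p = 0.503, and 0.200 after scaling, limma). One library stood apart. Transcripts of the mitochondrial genome took between 18.3% and 19.9% of TPM in the controls, and 17.9, 34.9 and 22.9% in Cend1-KO libraries 1, 3 and 4, and nuclear copies of mitochondrial genes took another 17.3% in replicate 3 against at most 10.3% elsewhere. In such a library less of the total is left for other transcripts. Most results are therefore also given after median-of-ratios scaling, in which each library is divided by the median ratio of its genes to their geometric mean over the libraries. The factors ran from 0.713 in Cend1-KO replicate 3 to 1.24 in replicate 1. Cardiomyocyte markers (12 genes, none at 0) summed to 61857 to 69004 TPM in controls and 34922 to 52035 TPM in Cend1-KO libraries, and fibroblast markers to 1594 to 2964 and 3482 to 5308 TPM. Lung markers summed to 499.9 and 822.5 TPM in Cend1-KO replicates 1 and 4 and to at most 0.334 TPM in the other 4 libraries.

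All 78 genes were expressed in every library and passed the filter of at least 1 TPM in at least 3 libraries. In control ventricles their mean levels spanned 70.7-fold, from 10.01 TPM for Mrpl17 to 708 TPM for Mrpl42, with a median of 66.9 TPM. The 4 most abundant were Mrpl42 (mL42), at 727, 713 and 682 TPM in controls 1, 3 and 4, Mrpl33 (bL33m), at 507, 569 and 448 TPM, Mrps21 (bS21m), at 407, 485 and 352 TPM, and Mrpl30 (uL30m), at 355, 394 and 324 TPM. Within each control library Mrpl42 was above the other members, Mrpl33 above Mrps21 and Mrps21 above Mrpl30. The ranges over the controls overlapped for Mrpl33 and Mrps21 and for Mrps21 and Mrpl30. Mrpl30 and Mrpl12 changed order between the control libraries. At the other end, Mrpl17 (bL17m) was at 10.02, 10.5 and 9.47 TPM, Mrpl19 (bL19m) at 11.7, 12.7 and 11.7, Mrps5 (uS5m) at 13.5, 12.4 and 12.3 and Mrps25 (mS25) at 13.7, 14.8 and 14.9 TPM. The order was nearly the same in both groups, with a Spearman rho of 0.986 between control and Cend1-KO mean levels across the 78 genes, which are not independent replicates.

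**Figure D1:**
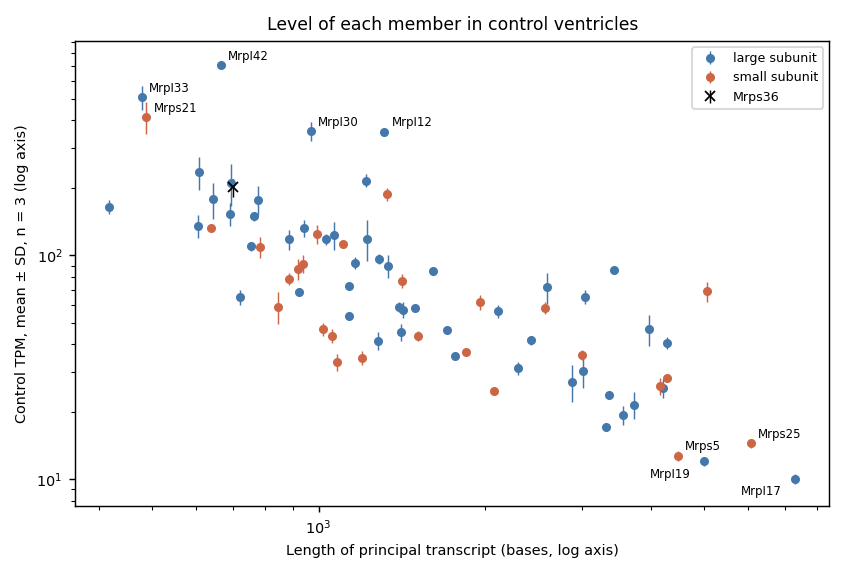
Level of each of the 78 genes in control ventricles (mean ± SD of 3 libraries, TPM, log axis) against the length of its principal transcript (bases, log axis), with large-subunit genes in blue, small-subunit genes in orange and Mrps36 as a cross. Short transcripts such as Mrpl33 and Mrps21 sit at the top left and the long transcripts of Mrpl17, Mrps25, Mrpl19 and Mrps5 at the bottom right; Spearman rho is -0.79.

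Abundant members had short transcripts, as the plot of level against transcript length shows. The principal transcripts were 418 to 7300 bases long, with a median of 1302 bases, against 2944 bases for all tested genes with such a transcript. Across the 78 members, level and length had a Spearman rho of -0.79, and across 11767 tested genes it was -0.38. TPM already divides by a length, so this is a relation left after that division, and the length the authors used is not given in the sources used here. Replicates agreed closely in the controls, with a median coefficient of variation of 7.02% over the members, and less so in Cend1-KO, with 21.7%.

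In Cend1-KO ventricles the members were at lower levels as a group, with no single member past the threshold of the test. As deposited, all 78 had a mean log2(TPM + 1) below that of the controls, where 62.4% of all 13542 tested genes were below, and their median difference was -0.47 against -0.11 for all tested genes. The differences ran from -0.92 for Mrpl34 to -0.06 for Mrps30, that is, Cend1-KO levels of 52.9% to 95.7% of control. Limma called 0 members lower and 0 higher at an adjusted p under 0.05, where it called 0.908% of all tested genes lower and 0.79% higher (1.7% in all). At an unadjusted p under 0.05 there were 28 of the 78 members, all lower, beside 2080 of the 13542 tested genes in either direction. The smallest adjusted p was 0.0601, for Mrps17. In 51 of the 78, all 3 Cend1-KO libraries were below all 3 controls, as in 18.6% of all tested genes, and in 0 members they were all above, against 5.67%. Cend1-KO replicate 3 was the lowest of the 6 libraries for 70 members. In these bulk samples, fewer cells of a type and less RNA per cell cannot be told apart.

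**Figure D2:**
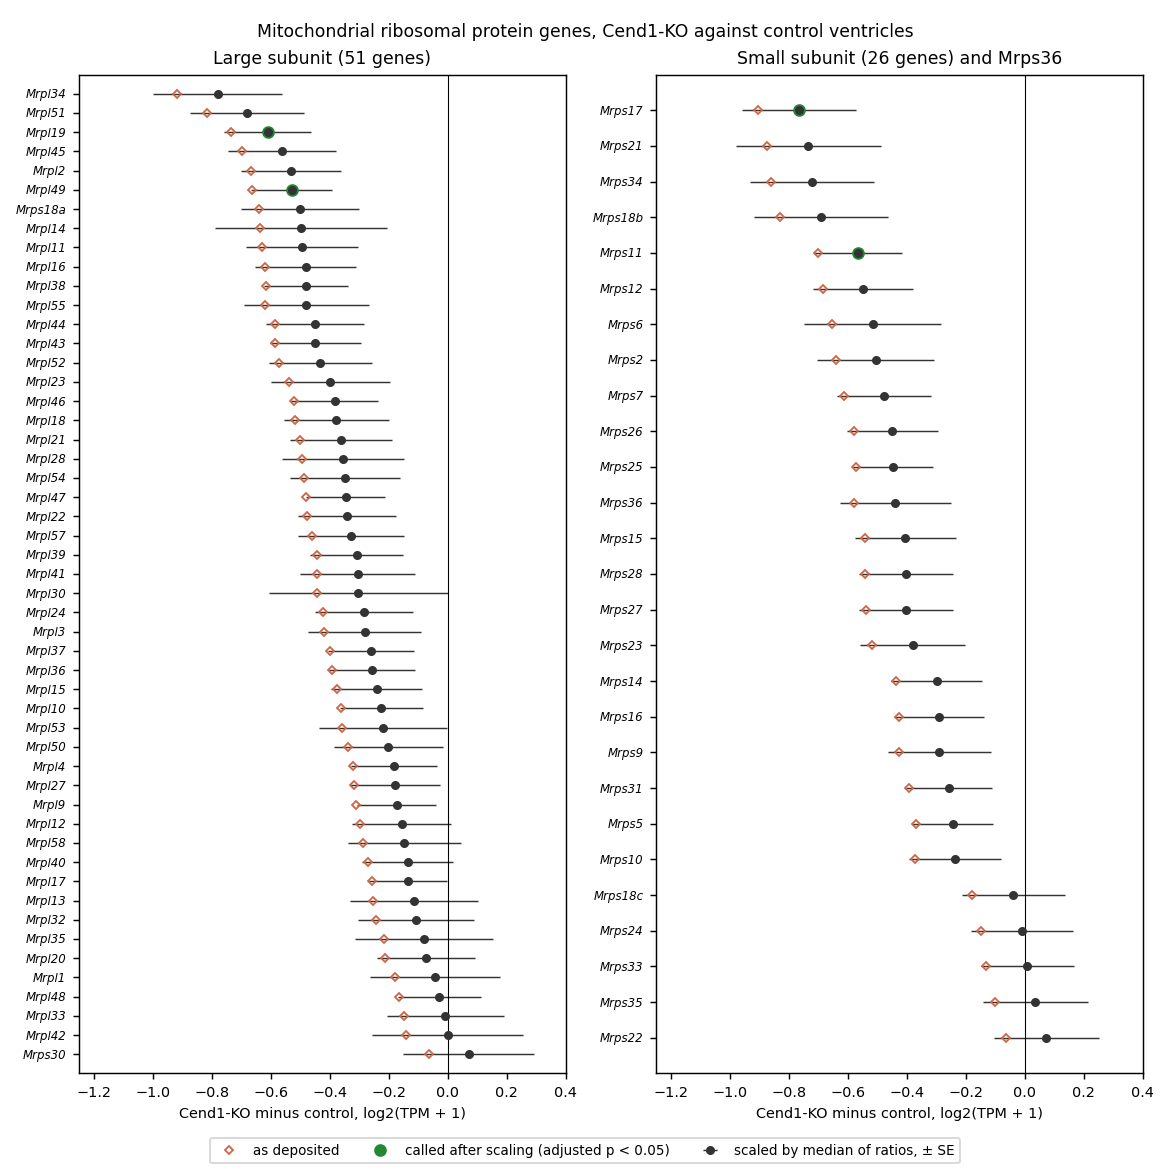
Difference between Cend1-KO and control ventricles on the log2(TPM + 1) scale for each gene, large subunit on the left and small subunit with Mrps36 on the right. Open diamonds show values as deposited, filled circles with bars the scaled values ± SE, and green circles the 4 genes called after scaling; all diamonds lie below 0, and 4 of the 78 scaled values lie above 0.

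After median-of-ratios scaling the pattern kept its direction and became smaller. The median difference of the members was -0.33 against 0.0020 for all tested genes, and 74 of 78 were below 0, against 49.7% of all tested genes. The 4 exceptions, all of them with proteins specific to mitochondria, were Mrps22, Mrps30, Mrps35 and Mrps33, at 0.07, 0.07, 0.04 and 0.01 (Mrps33 is named after its value was seen). Limma called 4 members lower, as it did 4.14% of all tested genes, and 0 higher, against 6.17%, so the share of called members, 4 of 78, was close to the background. They were Mrpl19, Mrps17, Mrpl49 and Mrps11, Mrpl49 and Mrps11 named after their values were seen, with adjusted p = 0.0302, 0.0355, 0.0386 and 0.0410. The groups did not overlap, with Cend1-KO lower, in 29 members, against 17% of all tested genes, and in 0 with Cend1-KO higher, against 17.9%.

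Scaling also changed which library was lowest. Relative to the control mean, the median over the members was 0.00, 0.16 and -0.17 in controls 1, 3 and 4 and -0.49, -0.29 and -0.19 in Cend1-KO libraries 1, 3 and 4. Cend1-KO replicate 1 was now the lowest library for 50 members and replicate 3 for 23. In Cend1-KO libraries 1, 3 and 4, respectively, 70, 52 and 41 of the 78 members were below the lowest control, against 37.9%, 35.7% and 31.8% of all tested genes. Control replicate 3 was the highest library for 59 members, and its median lay about as far above 0 as that of control replicate 4 lay below it, and the median of Cend1-KO replicate 4 was only just under the lowest control. Without Cend1-KO replicate 3, the scaled median was -0.34, 77 of 78 members were below 0 with Mrpl20 as the exception, against 49.8% of all tested genes, and limma called 6 lower (4.17% of all tested genes) and 0 higher (5.94%). Those 6 were Mrpl19, Mrpl45, Mrpl49, Mrps17, Mrps18b and Mrps27. As deposited without that library, 73 of 78 were below 0, against 43.5% of all tested genes, with a median of -0.27, and 5 were called lower (2.32% of all tested genes) and 0 higher (3.77%). Those 5 were Mrpl34, Mrpl45, Mrps17, Mrps18b and Mrps34. Mrps17 was the one member called in all 3 of these fits. Mrpl20 and Mrps27 are named after their values were seen.

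The small-subunit members with the smallest p-values were Mrps17, Mrps18b and Mrps34. Mrps17 (mm10 chromosome 5, 129715497 to 129722556, plus strand) encodes uS17m, a protein that binds the small-subunit rRNA in bacterial ribosomes. It was at 65.7, 77.0 and 64.3 TPM in controls 1, 3 and 4 and 36.2, 32.4 and 40.8 TPM in Cend1-KO libraries 1, 3 and 4. The Cend1-KO libraries lay close together and well below every control, and after scaling they were at 29.2, 45.4 and 41.7 against 62.8, 78.2 and 57.2 in the controls. The difference was -0.90 (SE 0.22; adjusted p = 0.0601, limma) as deposited and -0.77 (adjusted p = 0.0355) after scaling. Mrps34 (chromosome 17, 24895116 to 24897502, plus strand) encodes mS34, whose variants in humans cause Leigh syndrome. It was at 85.6, 96.4 and 77.7 TPM in the controls and 47.1, 34.9 and 63.2 TPM in Cend1-KO, replicate 4 being the nearest to the controls without reaching them. Its difference was -0.86 (adjusted p = 0.120) and, after scaling, -0.72 (adjusted p = 0.0571). The exons of Mrps34 overlap those of Mapk8ip3 on the other strand and of Nme3 on the same strand over 63.4% and 37% of their length, and the library kit is not stated to mark strand, so reads of these genes could not be kept apart with certainty.

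In the large subunit the smallest p-values belonged to Mrpl34, Mrpl45 and Mrpl19. Mrpl34 (chromosome 8, 71464959 to 71465747, plus strand) encodes bL34m, one of the smallest ribosomal proteins of bacteria. Its level was 232, 277 and 198 TPM in the controls and 138, 84.7 and 159 TPM in Cend1-KO libraries 1, 3 and 4. All Cend1-KO values were below all controls, with control replicate 4 the lowest control and Cend1-KO replicate 4 the highest of its group. The difference was the largest of all members, -0.92 (SE 0.26; adjusted p = 0.108), and -0.78 after scaling (adjusted p = 0.0511).

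Mrpl45 (chromosome 11, 97315716 to 97329920, plus strand) encodes mL45, which sits at the exit of the nascent-chain tunnel and holds the ribosome at the inner membrane. It was at 41.7, 43.8 and 39.8 TPM in the controls and 25.5, 23.7 and 26.9 TPM in Cend1-KO. As deposited the 3 Cend1-KO libraries lay close together, and after scaling they spread to 20.6, 33.3 and 27.5, still below the 39.9, 44.5 and 35.4 of the controls. The difference was -0.70 (adjusted p = 0.149), and -0.56 after scaling (adjusted p = 0.0807, and 0.0333 without Cend1-KO replicate 3). Mrpl19 (chromosome 6, 81957851 to 81965958, minus strand) encodes bL19m, a protein at the interface of the subunits in bacteria, and is among the 4 least abundant members. It was at 11.7, 12.7 and 11.7 TPM in the controls and 7.45, 5.47 and 7.70 TPM in Cend1-KO, without overlap on either scale. Its scaled difference, -0.61 (SE 0.15), had the smallest scaled adjusted p of the members, 0.0302, against 0.162 as deposited. Over 36% of its exonic length Mrpl19 overlaps Gcfc2 on the other strand. After scaling, leaving out either of the controls numbered 1 and 3, or Cend1-KO replicate 1, left no member called.

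**Figure D3:**
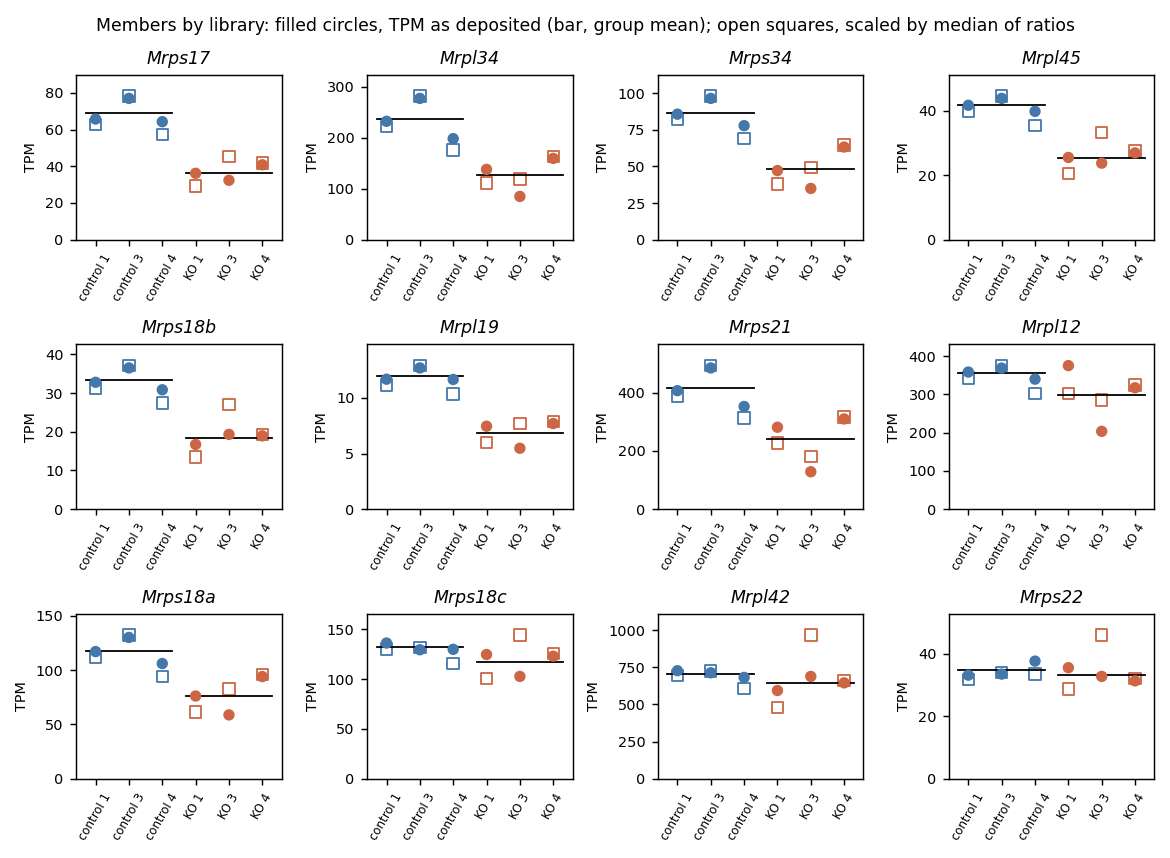
TPM of 12 members in each of the 6 libraries, controls in blue and Cend1-KO (KO) in orange, with filled circles for deposited values, black bars for their group means and open squares for scaled values. From Mrps17 to Mrps21 the deposited groups do not overlap, whereas those of Mrpl12, Mrpl42 and Mrps22 do; the scaled value of Cend1-KO replicate 3 is the highest of the 6 for Mrps18c, Mrpl42 and Mrps22.

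The most abundant members did not behave alike. Mrps21 (bS21m, chromosome 3, 95862634 to 95871519, minus strand) was at 281, 129 and 309.8 TPM in Cend1-KO libraries 1, 3 and 4, below all 3 controls, with replicate 3 far below the other 2. Its difference was -0.87 (SE 0.30; adjusted p = 0.187), and after scaling, where Cend1-KO replicate 4 overlapped control replicate 4, -0.73 (adjusted p = 0.0847). Mrpl42 was at 594, 689 and 646 TPM in Cend1-KO, overlapping the controls. Its difference of -0.14 (adjusted p = 0.780) vanished to 2 decimals after scaling, where replicate 3 stood above every control and replicate 1 below. Mrpl33 was at 539.7, 388 and 454 TPM, also overlapping, with a difference of -0.15 as deposited and -0.01 after scaling. Mrpl30 was at 205, 290.4 and 302 TPM. All 3 Cend1-KO values of Mrpl30 were below the controls as deposited, replicate 1 being the lowest, and the groups overlapped after scaling (difference -0.44 and -0.30, adjusted p = 0.373 and 0.538).

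Of the 4 least abundant members, Mrpl19 is described above. Mrps25 (mS25) was at 11.8, 6.37 and 10.9 TPM in Cend1-KO libraries 1, 3 and 4, all below the controls, and its difference was -0.57 (adjusted p = 0.325), and -0.45 after scaling (adjusted p = 0.0651). Nr2c2, on the other strand, overlaps 69.8% of its exonic length. Mrps5 was at 12.9, 6.30 and 10.7 TPM and Mrpl17 at 10.2, 6.16 and 8.70 TPM. Both overlapped their controls, with replicate 3 the lowest of all 6 libraries, and their differences were -0.37 and -0.26 (adjusted p = 0.552 and 0.665), and -0.25 and -0.13 after scaling.

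The stalk that receives the translation factors came next. Mrpl12 encodes bL12m, the flexible stalk that recruits elongation factors, and was at 359, 369 and 340.0 TPM in the controls and 375, 204 and 317 TPM in Cend1-KO. Cend1-KO replicate 1 was the highest of the 6 libraries and replicate 3 the lowest. Its difference was -0.30 (adjusted p = 0.599), and -0.16 after scaling. The 5 proteins of this stalk and its base (Mrpl10, Mrpl11, Mrpl12, Mrpl53 and Mrpl54) had a median difference of -0.36, and of -0.23 after scaling, with 0 called. Groups did not overlap, Cend1-KO lower, in 2 of them as deposited and in 1 after scaling (18.6% and 17% of all tested genes). Mrpl58 encodes mL62, a release-factor relative that became part of the large subunit and can free stalled ribosomes. It was at 64.2, 85.2 and 66.4 TPM in the controls and 62.9, 49.5 and 63.9 TPM in Cend1-KO, where the highest Cend1-KO value was just under the lowest control. Its difference was -0.29 (adjusted p = 0.587), and -0.15 after scaling, where the groups overlapped.

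Mrps12 encodes uS12m of the decoding centre, where codon and tRNA are matched. It was at 80.2, 81.7 and 73.1 TPM in controls 1, 3 and 4 and 63.4, 30.4 and 58.2 TPM in Cend1-KO libraries 1, 3 and 4. The groups did not overlap on either scale, and replicate 3 was the lowest. Its difference was -0.69 (adjusted p = 0.261), and -0.55 after scaling (adjusted p = 0.0670). Mrpl44 encodes mL44, a protein with an RNase III fold whose variants cause infantile cardiomyopathy in humans. It was at 57.5, 61.6 and 52.6 TPM in the controls and 41.5, 31.3 and 41.3 TPM in Cend1-KO, again without overlap. The difference of Mrpl44 was -0.59 (adjusted p = 0.240), and -0.45 after scaling (adjusted p = 0.111).

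The 3 Mrps18 genes encode relatives of bacterial bS18 that occupy different places in the ribosome, and they lay below control by different amounts. Mrps18b encodes mS40 of the small subunit and was at 32.8, 36.5 and 30.8 TPM in the controls and 16.7, 19.3 and 18.9 TPM in Cend1-KO, with no overlap. Its difference was -0.83 (adjusted p = 0.0928), and -0.69 after scaling (adjusted p = 0.0819). Without Cend1-KO replicate 3 the scaled difference was -0.93 (adjusted p = 0.0211). Mrps18a encodes mL66 of the large subunit and was at 117, 130.03 and 106 TPM in the controls and 76.1, 58.7 and 94.0 TPM in Cend1-KO. The groups of Mrps18a stood apart as deposited and overlapped after scaling, with differences of -0.64 and -0.50 (adjusted p = 0.215 and 0.138). Mrps18c encodes bS18m, the small-subunit protein closest in place to the bacterial one. It was at 136, 129.6 and 130.01 TPM in the controls and 125, 103 and 123 TPM in Cend1-KO, below the controls as deposited and overlapping them after scaling. Its differences, -0.18 and -0.04, were the smallest of the 3. The difference between the paralogs was not tested.

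At the other end of the range stood Mrps22, Mrps30 and Mrps35, whose groups overlapped on both scales. Mrps22 encodes mS22, whose variants in humans cause mitochondrial disease with cardiomyopathy, and was at 33.2, 33.5 and 37.7 TPM in the controls and 35.6, 32.8 and 31.3 TPM in Cend1-KO. Mrps30 encodes mL65 and was at 16.8, 16.6 and 18.0 and 15.8, 18.4 and 15.1 TPM. Cend1-KO replicate 3 was the highest library for Mrps30 even as deposited. Mrps35 encodes mS35 and was at 26.2, 28.3 and 23.6 and 25.02, 21.4 and 26.4 TPM. The differences of Mrps22, Mrps30 and Mrps35 were -0.06, -0.06 and -0.10 as deposited and turned positive after scaling, at 0.07, 0.07 and 0.04. Without Cend1-KO replicate 3 the scaled differences were -0.12, -0.21 and -0.08. Mrps36, the dehydrogenase component, was at 222, 189.6 and 192 TPM in controls 1, 3 and 4 and 143, 98.7 and 169.5 TPM in Cend1-KO libraries 1, 3 and 4. Its groups did not overlap as deposited, and its difference of -0.58 (adjusted p = 0.276; -0.44 after scaling) lay within the range of the ribosomal members.

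Grouped by place, both subunits had a median difference below 0. It was -0.44 for the 51 large-subunit and -0.54 for the 26 small-subunit genes as deposited, and -0.31 and -0.40 after scaling. By library, the scaled large-subunit median of Cend1-KO replicate 4, -0.156, was just above that of control replicate 4, -0.163, so the groups overlapped. Small-subunit medians were -0.51, -0.24 and -0.28 in Cend1-KO libraries 1, 3 and 4, all below the lowest control, -0.18. Groups that did not overlap after scaling, all with Cend1-KO lower, numbered 15 of 51 (29.4%) and 14 of 26 (53.8%), against 17% of all tested genes. The 46 genes with a bacterial counterpart had a scaled median of -0.30 and the 31 mitochondria-specific ones -0.35. Summed TPM of large-subunit genes was 2.85, 2.90 and 2.86 times that of small-subunit genes in controls 1, 3 and 4 and 3.14, 3.33 and 3.05 times in Cend1-KO libraries 1, 3 and 4, without overlap. This ratio leaned on a few genes. Without the 4 most abundant members it was 2.59, 2.74 and 2.57 in the controls and 2.79, 2.34 and 2.71 in Cend1-KO, and the groups overlapped.

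Summed, the 78 transcripts made 8109, 8691 and 7516 TPM in controls 1, 3 and 4 and 6821, 4779.8 and 6747 TPM in Cend1-KO libraries 1, 3 and 4. All Cend1-KO sums were below all controls, and replicate 3 was far below the other 2. Ratios within a library do not depend on its scaling. For every 100 TPM of cytosolic ribosomal protein transcripts there were 10.6, 10.2 and 9.51 TPM of members in the controls and 8.01, 8.90 and 8.37 in Cend1-KO. In this ratio the Cend1-KO libraries were again all below the controls, and replicate 3 no longer stood apart. Against 100 TPM of nuclear-encoded respiratory chain and ATP synthase transcripts the members made 7.77, 7.93 and 8.01 TPM in the controls and 7.52, 7.501 and 7.16 in Cend1-KO, a narrower gap without overlap. For each TPM of members, mRNAs of the mitochondrial genome, which the mitochondrial ribosome translates, came to 20.2, 17.4 and 22.2 TPM in the controls and 20.8, 63.6 and 27.9 TPM in Cend1-KO. There replicate 3 was far above the rest and replicate 1 lay within the controls. The mitochondrial rRNAs, their partners in the particle, were at 2600.0, 2749 and 2442 TPM (mt-Rnr1) and 2445, 2622 and 2262 TPM (mt-Rnr2) in the controls and at 2006, 2413 and 3145 TPM and 3066, 3689 and 3249.9 TPM in Cend1-KO. Only mt-Rnr2 had groups that did not overlap, with Cend1-KO higher (adjusted p = 0.314), and after scaling they overlapped.

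**Figure D4:**
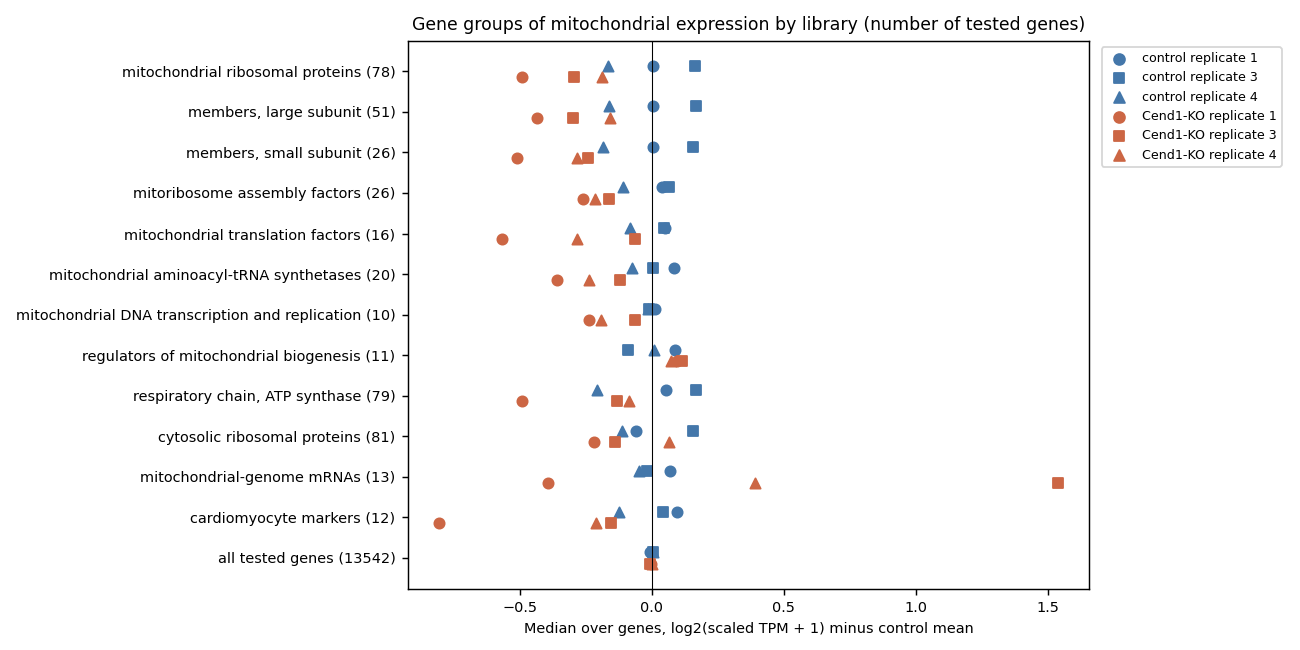
Median over the genes of each group, after median-of-ratios scaling, of log2(TPM + 1) minus the control mean, in each of the 6 libraries (controls in blue above, Cend1-KO in orange below; the number of tested genes in brackets). The ribosomal proteins of the mitochondria lie below the controls in all 3 Cend1-KO libraries. So do assembly factors, synthetases, genes of mitochondrial DNA transcription and replication, and cardiomyocyte markers. Translation factors do not, with -0.07 in Cend1-KO replicate 3 and -0.08 in control replicate 4. The mRNAs of the mitochondrial genome run from -0.39 to 1.54 in Cend1-KO.

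The rest of the mitochondrial translation machinery lay on the same side of control. The 5 mitochondrial ribosomal proteins whose genes carry other names (Dap3, Ptcd3, Chchd1, Aurkaip1 and Gadd45gip1) had a median difference of -0.40, and -0.26 after scaling, with 0 called on either scale. Gadd45gip1 (mL64) was at 27.6, 29.0 and 29.2 TPM in the controls and 21.8, 13.0 and 23.2 TPM in Cend1-KO, and Ptcd3 (mS39) at 62.5, 60.2 and 62.7 and 44.4, 50.5 and 45.2 TPM, both without overlap. Of 26 assembly factors 25 were below 0, with a median of -0.34, and -0.21 after scaling. None was called as deposited, and 2 of 26 fell after scaling, where 4.14% of all tested genes were called lower: Mrm3, which methylates the large-subunit rRNA (16.1, 11.5 and 14.6 TPM in the controls, 9.90, 5.60 and 8.28 in Cend1-KO; scaled adjusted p = 0.0191), and Mettl17, a small-subunit assembly factor (adjusted p = 0.0435).

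Of 16 translation factors the median was -0.42, and -0.30 after scaling, and 15 were below 0 as deposited. The elongation factor gene Tufm was at 186, 162 and 170.5 TPM in controls 1, 3 and 4 and 109, 77.1 and 121 TPM in Cend1-KO libraries 1, 3 and 4, and its exchange factor Tsfm at 49.9, 48.0 and 48.3 and 34.3, 16.6 and 32.7 TPM. Neither gene's groups overlapped. Both fell after scaling (adjusted p = 0.0454 and 0.0213), as did Pdf, the peptide deformylase, named after its value was seen (adjusted p = 0.0371), and none was called as deposited. These are 3 of 16, beside 4.14% of all tested genes. Among 20 mitochondrial aminoacyl-tRNA synthetases and related enzymes the median was -0.35, and -0.22 after scaling, and 1 of 20 fell after scaling, a share near that background, the seryl-tRNA synthetase gene Sars2 (8.64, 6.15 and 7.01 TPM in the controls, 5.09, 3.12 and 3.85 in Cend1-KO; adjusted p = 0.0261).

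Groups outside mitochondrial translation were mixed. The 79 tested respiratory chain and ATP synthase genes had a median of -0.39, and -0.25 after scaling, with 0 called on either scale. Their groups did not overlap, Cend1-KO lower, in 43 of 79 as deposited (54.4%, against 18.6% of all tested genes) and in 10 of 79 after scaling (12.7%, against 17%). Ndufv3 and Ndufb10, subunits of complex I, had their smallest p-values as deposited (scaled adjusted p = 0.0840 and 0.130). The 81 tested cytosolic ribosomal protein genes had a median of -0.25, and -0.11 after scaling, with 0 called. Rps27a and Rplp2 had their smallest p-values as deposited, at 431 ± 283 and 871 ± 148 TPM for Rps27a and 504 ± 42.1 and 347 ± 116 TPM for Rplp2 (control and Cend1-KO, mean ± SD, n = 3 each; scaled adjusted p = 0.0606 and 0.181, limma). For the 10 genes of mitochondrial DNA transcription and replication it was -0.20, and -0.10, with 0 called, Mgme1 and Polrmt having the smallest p-values as deposited (scaled adjusted p = 0.0795 and 0.235). The 13 mRNAs of the mitochondrial genome had a median of 0.33, and 0.47 after scaling. Their scaled medians were -0.39, 1.54 and 0.39 in Cend1-KO libraries 1, 3 and 4, so the direction differed between libraries, and 0 were called. The smallest p-values as deposited among them were those of mt-Nd4l and mt-Atp6 (adjusted p = 0.325 and 0.360, and 0.298 and 0.339 after scaling, limma).

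Among 11 regulators of mitochondrial biogenesis, 1 fell, Ppargc1a, the coactivator of NRF1 and the estrogen-related receptors. It was at 39.3, 24.7 and 25.7 TPM in controls 1, 3 and 4 and 11.7, 12.4 and 10.2 TPM in Cend1-KO libraries 1, 3 and 4. All Cend1-KO values were below all controls. Its difference was -1.28 (adjusted p = 0.0219), and -1.15 after scaling (adjusted p = 0.0191). The factors whose motifs are marked in the promoters above were not called on either scale. As deposited their groups overlapped: Nrf1 was at 5.62 ± 0.793 and 5.77 ± 2.27 TPM, Gabpa at 13.4 ± 0.959 and 13.9 ± 3.10 TPM and Yy1 at 10.7 ± 0.602 and 12.7 ± 4.39 TPM (control and Cend1-KO, mean ± SD, n = 3 each; adjusted p = 0.986, 0.972 and 0.802). After scaling their differences were 0.09, 0.16 and 0.30 (adjusted p = 0.683, 0.427 and 0.154). In 5 of the 11 regulators all Cend1-KO libraries were then above all controls (45.5%, against 17.9% of all tested genes). In 2 they were below (18.2%, against 17%). As deposited these counts were 0 above and 2 below. After scaling 5 of the 11 had an unadjusted p under 0.05, beside 3834 of the 13542 tested genes. The list median was -0.02 as deposited and 0.09 after scaling.

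Marker genes of the cells in the ventricle also differed between the groups. After scaling, the 12 cardiomyocyte markers had a median difference of -0.41, with -0.80, -0.15 and -0.21 in Cend1-KO libraries 1, 3 and 4, and the members had -0.49, -0.29 and -0.19. Replicate 1 was the lowest for both. It was also the library with the highest endothelial marker median, where the 10 markers were at 1.44, 0.41 and 0.46 in Cend1-KO libraries 1, 3 and 4, and the fibroblast markers were at 0.92, 1.04 and 0.84. Endothelial markers summed to 1566 to 1897 TPM in controls and 2265 to 5101 TPM in Cend1-KO, and erythroid markers (7 genes) to 1389.5 to 4474 TPM and 10633 to 24500.2 TPM. The 10 cycling cell markers, like the members, were lower, with a median of -1.63 as deposited and -1.52 after scaling. Their scaled medians were -1.34, -1.52 and -1.55 in Cend1-KO libraries 1, 3 and 4. Of the 10, 8 were called lower as deposited and 10 after scaling, against 0.908% and 4.14% of all tested genes. Macrophage markers had a scaled median of 0.50, and 4 of 10 were called higher after scaling, against 6.17% of all tested genes, and 0 as deposited. Of 7 adipocyte markers only 3 were tested, and all 3 were called higher on both scales (0.79% and 6.17% of all tested genes). Their scaled median was 2.23. The 7 summed to 0.0454 to 2.32 TPM in controls and 12.7 to 22.3 TPM in Cend1-KO. The tested ones thus met the filter through Cend1-KO libraries, where they were high, so these calls carry no separate weight. The part of these cell types, and of the lung markers given above, in the lower level of the members was not tested.

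**Figure D5:**
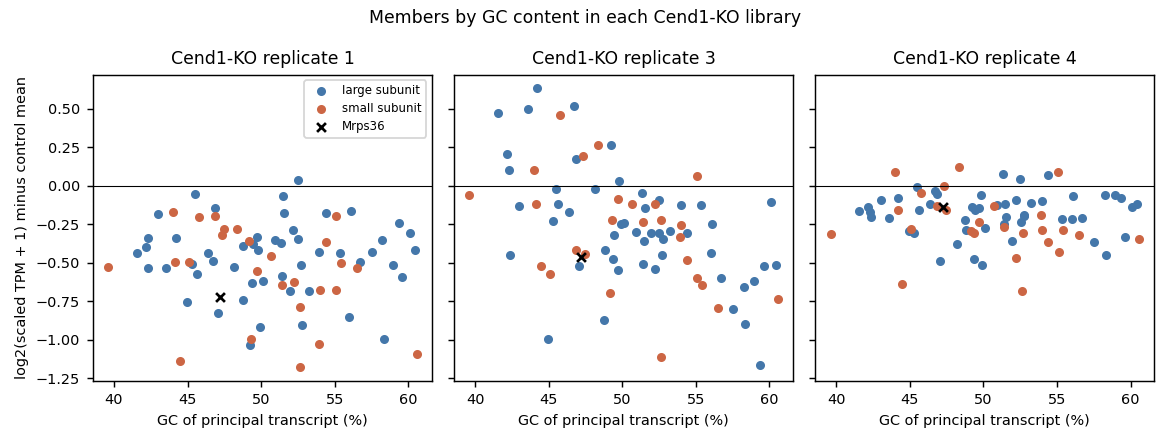
Scaled log2(TPM + 1) minus control mean of each member against the GC content of its principal transcript (%), in a panel for each Cend1-KO library, with large-subunit genes in blue, small-subunit genes in orange and Mrps36 as a cross. In replicate 1, 77 of the 78 points lie below 0, across the whole GC range, whereas in replicate 3 they slope from above 0 at low GC downward with rising GC.

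Values of Cend1-KO replicate 3 were related to base composition, more than those of the other Cend1-KO libraries. Across the 78 members the scaled deviation from the control mean and the GC content of the transcript had a Spearman rho of -0.49 in replicate 3, -0.11 in replicate 1 and -0.10 in replicate 4, and across 11767 tested genes in replicate 3 it was -0.44. Controls 1, 3 and 4 had 0.24, 0.14 and -0.38 across the members, so such a relation was also present in control replicate 4, where it was -0.06 across all tested genes. The 39 members of lower GC (39.6% to 50.1%) had a median of -0.13 in replicate 3 and the 39 of higher GC (50.7% to 60.6%) -0.34, whereas replicate 1 had -0.49 in both classes and replicate 4 -0.16 and -0.20. The members highest in replicate 3 were Mrps30, Mrpl42, Mrpl35, Mrpl1 and Mrps22, at 0.63, 0.52, 0.50, 0.47 and 0.46, with GC contents of 41.6% to 46.7%. The lowest there were Mrpl14 and Mrps21, at -1.17 and -1.11, with 59.4% and 52.7% GC, and Mrpl51, at -0.997, with 44.9%. Mrpl14 lay much closer to control in replicates 1 and 4, at -0.24 and -0.08. These genes were picked for their values in this library, and Mrpl1, Mrpl14, Mrpl35 and Mrpl51 are named after those values were seen. Of the 4 members above 0 after scaling, Mrps22, Mrps30, Mrps35 and Mrps33 were at -0.20, -0.34, -0.28 and -0.17 in replicate 1, at 0.46, 0.63, 0.27 and 0.11 in replicate 3 and at -0.05, -0.08, 0.12 and 0.09 in replicate 4.

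Many members share their start region with a neighbour on the other strand. For 33 of the 78 (42.3%), a protein-coding gene started on the opposite strand within 1000 bases, against 1916 of 11781 tested coding genes (16.3%). In 1 case both partners are members: Mrpl46 and Mrps11 are transcribed away from each other on chromosome 7, and in the annotation their 5′ ends overlap, so that the Mrps11 stretch printed above lies within the Mrpl46 gene. Mrps11 fell after scaling (43.8 ± 3.11 TPM in controls, 27.1 ± 6.77 in Cend1-KO, mean ± SD, n = 3 each) and Mrpl46 had a scaled difference of -0.38 (adjusted p = 0.127). Mrps12 and Sars2 start 172 bases apart, and both were lower, Sars2 passing the test after scaling and Mrps12 not. Of 25 partners that were tested and are not members, 20 were below 0 after scaling, against 49.7% of all tested genes. Their median was -0.18, against -0.35 for the members with a partner. Wdfy1, the partner of Mrpl44, fell, with 9.74 ± 2.99 TPM in controls and 2.49 ± 0.67 TPM in Cend1-KO (difference -1.60, adjusted p = 0.0112; scaled -1.48, 0.00275). Mitd1, which starts 66 bases from Mrpl30, rose after scaling, at 6.46 ± 1.41 and 11.5 ± 4.36 TPM (scaled difference 0.82, adjusted p = 0.0237; 0.288 as deposited). After scaling 2 more partners fell: Ncapd2 beside Mrpl51 (8.80 ± 1.23 and 4.54 ± 1.90 TPM; scaled difference -0.77, adjusted p = 0.0144; 0.161 as deposited) and Ska3 beside Mrpl57 (2.58 ± 0.53 and 0.94 ± 0.38 TPM; -0.81, 0.0127; 0.0576 as deposited). With Wdfy1, Mitd1 and Sars2 that made 5 of the 25 partners called after scaling, beside 10.3% of all tested genes called in either direction. These partners are named after their values were seen.

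Exons of 23 members overlap those of another protein-coding gene, in 13 of them over at least 10% of the member's exonic length summed over partners. The most affected were Mrps34, Mrpl53 (88% with Gm42688 on the same strand) and Mrps25, followed by Mrpl19 and Mrpl43 (33.4% with Twnk, the mitochondrial DNA helicase, on the other strand; Mrpl53 and Mrpl43 are named for this overlap). Without these 13 genes the median difference of the remaining members was -0.44 as deposited. A further 5 pseudogenes carry symbols of the same form and were not counted as members, and how the authors' counting divided reads between a member and its copies is not given in the sources used here.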

How the data were processed

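TRIzol was used for the extraction and a NEBNext Ultra RNA kit for the libraries, per the labels' protocols. The authors deposited a table of TPM per gene and library, and the submitters' processing notes name CASAVA, fastp, HISAT2 (2.0.5), featureCounts (1.5.0-p3) and the genome build mm10, without giving their order or the annotation. Its 6 library columns were mapped to samples through the column names given in the labels. Replicate numbers here are those of the sample titles, which differ from the numbers in the column names except for Cend1-KO replicate 1. Gene symbols, exons and transcripts came from GENCODE M21 (52081 of 57010 identifiers matched). TPM are not counts, so no count model was used. The 13542 genes that reached 1 TPM in 3 or more libraries were tested as log2(TPM + 1) with limma (3.58.1, R 4.3.3), using a mean-variance trend and robust priors, with Benjamini-Hochberg adjustment over all of them and a threshold of 0.05. Differences are Cend1-KO minus control on that scale and understate changes of low genes.

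The members and lists were chosen with earlier results of these data known. Named are the 6 members with the smallest p, the 4 most and 4 least abundant, 10 chosen for their roles, the 3 with differences nearest to or above 0, and, of each other list, the called genes or else the 2 with the smallest p. Alternatives were median-of-ratios and upper-quartile scaling, removal of abundant transcripts, other filters, pseudocounts and priors, a replicate block and leaving out each library. The fitting steps were tested on simulated data.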

Additional observations from a re-analysis of the deposited data

How the results depend on the processing

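As deposited, 0 members were called lower. The number was 4 after median-of-ratios scaling, 6 after upper-quartile scaling and 3 with the most abundant transcripts removed, and 0 under the other filters, pseudocounts and priors. The share of all tested genes called in either direction moved too, from 1.70% as deposited to 10.3%, 10.4% and 7.40% under the first 3 of these. Leaving out 1 library gave 0 to 6. As deposited it gave 5 without Cend1-KO replicate 3 (6.09% of all tested genes called in either direction) and 1 without replicate 1 (4.94%). Each of the others gave 0 (0.561% to 1.83%). After scaling it gave 6 without Cend1-KO replicate 3 (10.1%), 5 without replicate 4 (8.39%) and 4 without control replicate 4 (7.98%). Each of the others again gave 0 (3.46% to 6.97%). The cause of these changes in number was not tested. Deviations of same-numbered libraries from their group means had correlations of -0.172, 0.0441 and -0.12, and 1 of 6 libraries correlated best with its own number. With 3 libraries per group, this check cannot decide whether the shared numbers pair the libraries. A replicate block gave 4 members called lower, or 2 together with the scaling. The shares of all tested genes called in either direction were then 5.45% and 8.19%. The median of the members was below 0 and 0 members were called higher under every setting tried.

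Among the members named by rule, 8 had a difference that turned positive on the log2 scale under some setting, Mrpl30 from -0.44 and the others from smaller differences; values without a library are after median-of-ratios scaling. Members outside that rule were not followed through every setting. Examples among them that also turned positive were Mrpl20 (0.11 as deposited without Cend1-KO 3), Mrpl1 (0.15 after scaling without Cend1-KO 1) and Mrps33 (0.01 after scaling). The fewest members below 0 were 65 of 78, after scaling without Cend1-KO 1. There were 66 with abundant transcripts removed, 66 after scaling without control 3, and 73 as deposited without Cend1-KO 3. Mrpl30 was at 0.0625 without Cend1-KO 1. Mrpl33 was at 0.0986 with abundant transcripts removed, 0.124 without control 3, 0.0593 without Cend1-KO 1 and 0.0124 without Cend1-KO 4. Mrpl42 was at 0.106 with abundant transcripts removed, 0.0207 without control 1, 0.0534 without control 3, 0.243 without Cend1-KO 1 and 0.0123 without Cend1-KO 4. Mrpl58 was at 0.0265 without control 3. Mrps18c was at 0.0667 with abundant transcripts removed and 0.0983 without Cend1-KO 1. Mrps22 was at 0.0731 with median-of-ratios scaling, 0.0673 with upper-quartile scaling, 0.178 with abundant transcripts removed, 0.0731 with the replicate block and that scaling, 0.0418 without control 1, 0.0944 without control 3, 0.0804 without control 4, 0.207 without Cend1-KO 1 and 0.130 without Cend1-KO 4. Mrps30 was at 0.0720 with median-of-ratios scaling, 0.0665 with upper-quartile scaling, 0.174 with abundant transcripts removed, 0.0720 with the replicate block and that scaling, 0.0605 without control 1, 0.0966 without control 3, 0.0564 without control 4, 0.274 without Cend1-KO 1 and 0.146 without Cend1-KO 4. Mrps35 was at 0.0352 with median-of-ratios scaling, 0.0295 with upper-quartile scaling, 0.139 with abundant transcripts removed, 0.0352 with the replicate block and that scaling, 0.0405 without control 1, 0.142 without control 3 and 0.192 without Cend1-KO 1. The depth behind the TPM is unknown, so counting error could not be set beside them. Leaving out the 13 members with overlapping exons was chosen after seeing the data and gave 0 called.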
